A study of Homo sapiens with 18 samples.

Results

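The aldehyde dehydrogenases are a family of enzymes that oxidise aldehydes to acids. The description below covers 10 of their genes, ALDH1A1, ALDH1A2, ALDH1A3, ALDH1B1, ALDH2, ALDH3A1, ALDH3A2, ALDH7A1, ALDH9A1 and ALDH18A1, in human osteosarcoma cells sorted by retention of a dye. The members were taken as the probe sets that the platform annotation gives to exactly 1 of these genes, which yielded 18 of the 54675 probe sets on the array. No measured value entered this step from genes to probe sets, but the genes were chosen with earlier results of these data known. Of 19775 genes with a probe set of their own, 14418 were tested, among them 9 of the 10 members with 16 of their 18 probe sets. The member not tested was ALDH1A1. The table of 18 arrays held 2 MNNG_Lung, 3 143B_High, 5 143B_Low, 4 MNNG_High and 4 MNNG_Low arrays. MNNG/HOS (MNNG) and 143B are established lines that both descend from the HOS osteosarcoma line. The cells of both lines carried the green fluorescent protein ZsGreen and the membrane dye PKH26, which is diluted at each division, and grew as bone tumors. Per the labels, High cells had kept the dye and are called tumor-initiating cells, Low cells had lost it, and MNNG_Lung holds cells of MNNG lung metastases. Of the 3 143B_High arrays, 51&52 and 54&55 are pools of 2 tumors each, and of the lung arrays 1 is a mixture and the other carries the number of tumor MNNG-1233. The sources used here do not say whether lung cells were sorted.

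Members of this family differ in substrate and place in the cell. ALDH1A1, ALDH1A2 and ALDH1A3 oxidise retinaldehyde to retinoic acid, which acts through the nuclear receptors RAR and RXR, and the activity of such isoforms is widely read with a fluorescent substrate to mark stem-like cells in tumors, osteosarcoma included. ALDH2 and ALDH1B1 are mitochondrial and oxidise acetaldehyde, ALDH3A1 acts on medium-chain and aromatic aldehydes, and ALDH3A2 on fatty aldehydes. ALDH7A1 works in lysine breakdown, ALDH9A1 in carnitine synthesis, and ALDH18A1, a relative by sequence, makes the first intermediate of proline synthesis from glutamate.

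Levels are log2 signals, in which a difference of 1 is a doubling, and a level says nothing between probe sets because their probes bind with different strength. A gene was tested where 3 or more arrays had a signal of 5.36, the table median, or above, and where a gene had several probe sets the one with the highest mean stood for it. A call is an adjusted p under 0.05 in a limma fit over all 18 arrays (Benjamini-Hochberg over all genes), and ± gives the standard error of that fit unless SD is named. The labelled cell type was checked on 10 osteoblast and osteosarcoma markers, 9 of them with a probe set. COL1A1, the bone collagen, averaged 8.98 in MNNG_Lung, 10.61 in 143B_High, 10.52 in 143B_Low, 13.83 in MNNG_High and 13.55 in MNNG_Low, whereas SP7 and ALPL, a transcription factor and the alkaline phosphatase of osteoblasts, lay under 5.36 in all 4 bone groups and at 6.38 and 6.04 in MNNG_Lung. SPARC, a bone matrix protein, averaged 7.00 in MNNG_Lung and 10.76 to 12.30 in the bone groups, and RUNX2 6.68, against 8.66 to 10.50. IBSP was higher in MNNG_Lung, at 6.58 against 4.21 to 4.65. In MNNG_Lung VIM (14.28) and COL1A2 (8.44) were near their MNNG_Low levels (14.55 and 8.56), and SPP1 was at 4.33, against 5.39 in MNNG_Low. Of the 9 markers, 8 had a lung group mean at or above 5.36, against 5 in MNNG_High and 6 in each other bone group. The markers did not move together, and the lung arrays are called here by their label. The arrays were of unequal spread. The interquartile range of all signals was 2.09 and 2.28 in lung, 3.26 to 3.34 in 143B_High, 3.30 to 3.48 in 143B_Low, 2.76 to 3.18 in MNNG_High and 3.29 to 3.40 in MNNG_Low. The mean level of 10 of 11 listed macrophage markers, those with a probe set, was highest on the lung arrays, which had the narrowest spread. It was 7.03 and 7.19 there, 5.43 to 5.80 in 143B_High, 5.16 to 5.32 in 143B_Low, 6.36 to 6.78 in MNNG_High and 5.77 to 5.91 in MNNG_Low. Spread was alike in the Low groups. Over the 8 macrophage markers tested, the median difference of 143B_Low minus MNNG_Low was -0.14. Of these 1 was called, lower, where 14.5% of all genes were called lower. The marker LAPTM5 averaged 10.12 in MNNG_Low and 5.34 in 143B_Low, whereas AIF1 averaged 7.42 and 7.24 and SPI1 5.88 and 5.78. LAPTM5 also ran against the mean of the list in MNNG_Lung, at 5.98. The part of the spread or of the macrophage markers in the results below was not tested, except where a value without the arrays concerned is given. In bulk samples fewer cells of a type and less RNA per cell cannot be told apart.

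The plot of all arrays shows where each member was measured. ALDH1A1, the isoform most used as a stem cell marker, stayed under the testing level everywhere. It read 4.42 and 5.34 in the lung samples, 3.31 to 3.48 in 143B_High, 3.12 to 3.44 in 143B_Low, 3.22 to 3.85 in MNNG_High and 3.14 to 3.32 in MNNG_Low. The 4 bone groups overlapped and both lung arrays lay above every bone array. All these signals were under the testing level, so no size of a difference is given. ALDH3A1 was also dim, with group means of 5.15 in 143B_High, 5.02 in 143B_Low, 5.52 in MNNG_High and 5.39 in MNNG_Low. ALDH2, ALDH3A2, ALDH7A1, ALDH9A1 and ALDH18A1 lay well above the testing level on all 16 bone arrays, between 8.23 and 10.82. ALDH2 and ALDH1B1 varied least between the 4 bone groups. Their widest difference between group means was 0.20 for ALDH2 and 0.23 for ALDH1B1, and 94.9% and 93.4% of the genes tested had a wider one. The widest of the members was that of ALDH1A3, 1.83, which 4.54% of genes exceeded, followed by ALDH7A1 with 1.06, which 16.9% exceeded.

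**Figure D1:**
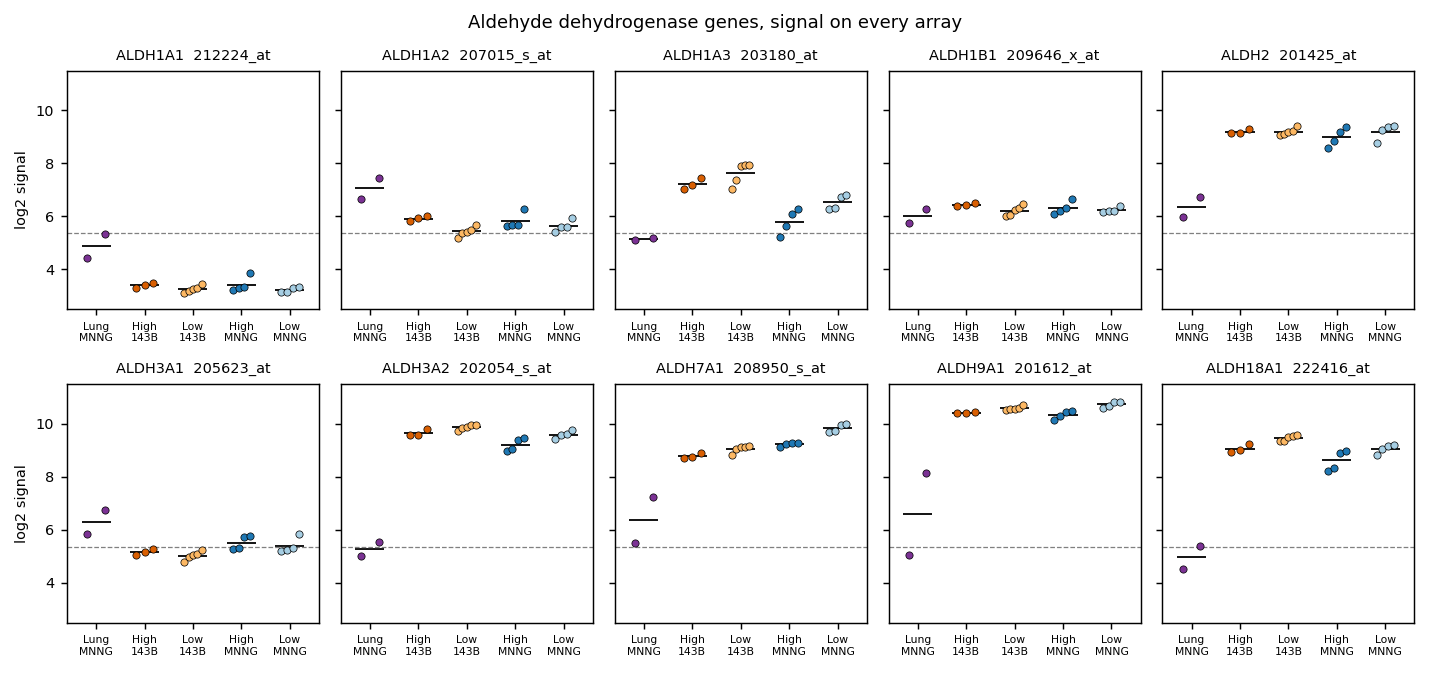
Log2 signal of the 10 aldehyde dehydrogenase genes on all 18 arrays, by group; each point is an array, black bars are group means and the dashed line is the testing level of 5.36. ALDH1A3 separates the 143B from the MNNG arrays of bone tumors, ALDH2 is level across the bone groups, and ALDH3A2, ALDH9A1 and ALDH18A1 are lowest on the lung arrays.

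The regions before the start sites are shown for ALDH1A2, ALDH1A3 and ALDH7A1, whose signals differed most between the lines. They come from the RefSeq promoter table of build GRCh38.p14, in which 8 of the 10 members were found, ALDH2 and ALDH3A1 being the others. Each line gives the 250 bases before a start, 5′ to 3′ on the gene's strand, and capitals mark matches on either strand to any of the following motifs. They are the CCAAT box (CCAAT), the GC box (GGGCGG), the TATA box (TATAAA) and the core of an antioxidant response element (TGACNNNGC). The lines are as follows.
ALDH1A2, first start, chr15:58065712-58065961, minus strand: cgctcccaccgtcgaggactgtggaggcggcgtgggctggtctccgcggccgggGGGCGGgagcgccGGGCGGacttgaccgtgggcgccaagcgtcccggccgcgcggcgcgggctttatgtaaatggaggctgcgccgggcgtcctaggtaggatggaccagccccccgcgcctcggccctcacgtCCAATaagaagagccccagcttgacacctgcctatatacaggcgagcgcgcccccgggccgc
ALDH1A2, second start, chr15:58014024-58014273, minus strand: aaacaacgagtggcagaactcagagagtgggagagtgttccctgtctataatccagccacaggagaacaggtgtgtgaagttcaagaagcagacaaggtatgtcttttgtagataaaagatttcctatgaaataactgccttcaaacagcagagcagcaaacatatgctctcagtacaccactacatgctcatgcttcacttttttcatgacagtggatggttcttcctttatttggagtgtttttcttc
ALDH1A3, chr15:100879581-100879830, plus strand: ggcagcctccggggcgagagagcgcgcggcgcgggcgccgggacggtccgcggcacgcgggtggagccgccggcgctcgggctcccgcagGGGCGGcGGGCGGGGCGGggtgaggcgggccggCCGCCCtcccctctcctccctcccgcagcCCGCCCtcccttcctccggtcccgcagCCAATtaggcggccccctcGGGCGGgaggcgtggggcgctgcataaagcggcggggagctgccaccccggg
ALDH7A1, chr5:126595220-126595469, minus strand: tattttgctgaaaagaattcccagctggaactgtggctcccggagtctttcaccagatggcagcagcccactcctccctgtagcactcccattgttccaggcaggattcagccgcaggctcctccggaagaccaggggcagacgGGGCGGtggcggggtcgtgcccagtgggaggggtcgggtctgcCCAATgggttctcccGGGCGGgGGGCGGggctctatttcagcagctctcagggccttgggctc

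The ALDH1A3 window held 38 CpG and 6 GC boxes, some overlapping, and 1 CCAAT box. The first ALDH1A2 start had 33 CpG, 2 GC boxes and 1 CCAAT box, while the window of the second had 1 CpG and none of the 4 motifs. The ALDH7A1 window had 11 CpG, 3 GC boxes and 1 CCAAT box. Over 35114 windows of this length in the table the median was 11 CpG, with quartiles of 3 and 23. CCAAT was found in 32% of them, GGGCGG in 42.6%, TATAAA in 10.7% and TGACNNNGC in 10.9%. TATAAA and TGACNNNGC were in none of the 10 windows of the members. A match is a description of letters, and the sources used here do not tie a probe set to a start.

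The first comparison asked whether cells that had kept the dye differ from cells that had lost it. In MNNG the ALDH1A3 signal was called lower in High than in Low cells, a call lost under several alternatives given below. The differences of 6 of the 9 members lay below 0, and so did those of 9139 of the 14418 genes tested. Of the 9 members 1 was called, lower, and 0 were called higher. Over all genes 26.1% were called, 10.6% higher and 15.5% lower. The median difference of the 9 members was -0.38, beside -0.19 for all genes, so that lower values in High were the rule for the table as a whole. ALDH2 and ALDH1B1, the mitochondrial acetaldehyde enzymes, lay at -0.20 ± 0.19 and 0.07 ± 0.15 and were not called.

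ALDH1A3, the retinaldehyde dehydrogenase, read 5.23, 6.08, 5.62 and 6.28 in High cells of the MNNG tumors, in ascending order of tumor number from MNNG-1231 to MNNG-1235, against 6.26, 6.32, 6.82 and 6.73 in Low cells of the same tumors. High was lower than Low within each of the 4 tumors, by 0.24 to 1.20, but the ranges overlapped, as High MNNG-1235 lay just above Low MNNG-1231. The difference was -0.73 ± 0.23, a 1.66-fold lower signal in High (n = 4 each, adjusted p = 0.0320). It was not called after a second quantile normalization (-0.73, adjusted p = 0.0748) or with array weights (-0.43, adjusted p = 0.0700), nor without High MNNG-1231 (-0.54, adjusted p = 0.119), High MNNG-1233 (-0.67, 0.0882), Low MNNG-1233 (-0.63, 0.0918) or Low MNNG-1235 (-0.67, 0.0786). In a fit that left out the lung arrays and took tumor as a block, it was -0.73 ± 0.16 (adjusted p = 0.00345).

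ALDH7A1, the lysine pathway enzyme also known as antiquitin, was lower in MNNG_High by all 3 of its probe sets. The brightest, 208950_s_at, read 9.23, 9.13, 9.26 and 9.27 in High and 10.005, 9.67, 9.96 and 9.71 in Low of the same 4 tumors. The groups did not overlap, and the difference of -0.61 ± 0.23 was not called with the lung arrays in the fit (adjusted p = 0.0594). Probe set 208951_at read 8.16, 8.37, 8.004 and 8.42 in High, against 9.08, 9.04, 8.98 and 8.81 in Low. It fell by 0.74 on the log2 scale with a standard error of 0.13 (adjusted p = 0.00267 over the 26556 probe sets tested, of which 25.5% were called, 16% lower and 9.53% higher). Probe set 213591_at read 6.09, 6.04, 5.63 and 6.32 in High, against 6.94, 6.54, 6.65 and 6.87 in Low. It fell by 0.73 with a standard error of 0.19 (adjusted p = 0.0144), and without High MNNG-1233 the fall of 0.60 had an adjusted p of 0.0508. In each of the 3 probe sets every High array lay below every Low array. After a second quantile normalization 208951_at was at -0.39 (adjusted p = 0.0728) and 213591_at at -0.68 (adjusted p = 0.0542).

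ALDH3A2, the fatty aldehyde dehydrogenase, and ALDH18A1, the proline synthesis enzyme, lay lower in High within all 4 tumors without passing the test. For ALDH3A2 the levels were 9.06, 9.37, 8.96 and 9.45 in High, against 9.77, 9.56, 9.41 and 9.61 in Low (-0.38 ± 0.14, adjusted p = 0.0558). For ALDH18A1 they were 8.34, 8.98, 8.23 and 8.90 in High, against 9.18, 9.17, 8.83 and 9.04 in Low (-0.44 ± 0.19, adjusted p = 0.0837). The ranges overlapped in both. Of their other probe sets, 217791_s_at of ALDH18A1 lay at -0.24 ± 0.15, 202053_s_at of ALDH3A2 at -0.40 ± 0.26 and 210544_s_at of ALDH3A2 at 0.13 ± 0.14, none of them called. High MNNG-1231 and High MNNG-1233, the arrays with the narrowest spread in this group, held the lowest High values of both genes. Without those 2 arrays 0 members were called, and 0.388% of all genes were. ALDH1A3 was then at -0.35 (adjusted p = 0.486), ALDH3A2 at -0.18 and ALDH18A1 at -0.11, and ALDH7A1 was at -0.64 and its probe set 208951_at at -0.58 (adjusted p = 0.0590).

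ALDH9A1, which oxidises the aldehyde that precedes carnitine, read 10.12, 10.46, 10.44 and 10.30 in High and 10.81, 10.66, 10.82 and 10.60 in Low. The groups did not overlap. The standard error of 0.38 around its difference of -0.40 came with lung arrays that stood at 8.16 and 5.06 in the same fit, and it was 0.10 without them. ALDH7A1 and ALDH9A1 were the 2 members whose groups did not overlap in this comparison, both lower, and over all genes 29.8% were of that kind, 10.4% higher and 19.4% lower.

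How many members passed depended on the arrays in the fit. Without the lung arrays the same differences gave 5 called members, all lower, and over all genes 44.4% were called and 28.8% called lower. With the tumor as a block as well, the 5 were ALDH1A3, ALDH3A2 (adjusted p = 0.0138), ALDH7A1 (0.00144), ALDH9A1 (0.00887) and ALDH18A1 (0.0118), while 55.8% of all genes were called and 37.6% were called lower. After a second quantile normalization 0 members were called, with 7.13% of genes called. Date tags in the labels put 3 of the 4 MNNG_Low arrays apart from all High arrays, and Low MNNG-1231 is the array that shares the tag of High. With the tag in the model, which rests on that array alone as Low, 0 members and 0.0208% of genes were called. ALDH7A1 then lay at -0.78 ± 0.38 and ALDH1A3 at -0.46 ± 0.37. In the main fit 10.6% of all genes were called higher in MNNG_High than in MNNG_Low and 15.5% lower. Of 8 macrophage markers tested 4 were higher, among them AIF1 (2.34 ± 0.27) and SPI1 (1.65 ± 0.28). So were 3 of 5 skeletal muscle, 2 of 7 lung epithelium and 1 of 3 endothelium markers, with 1 lung epithelium marker lower, and the part of these lists in the lower member signals was not tested.

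**Figure D2:**
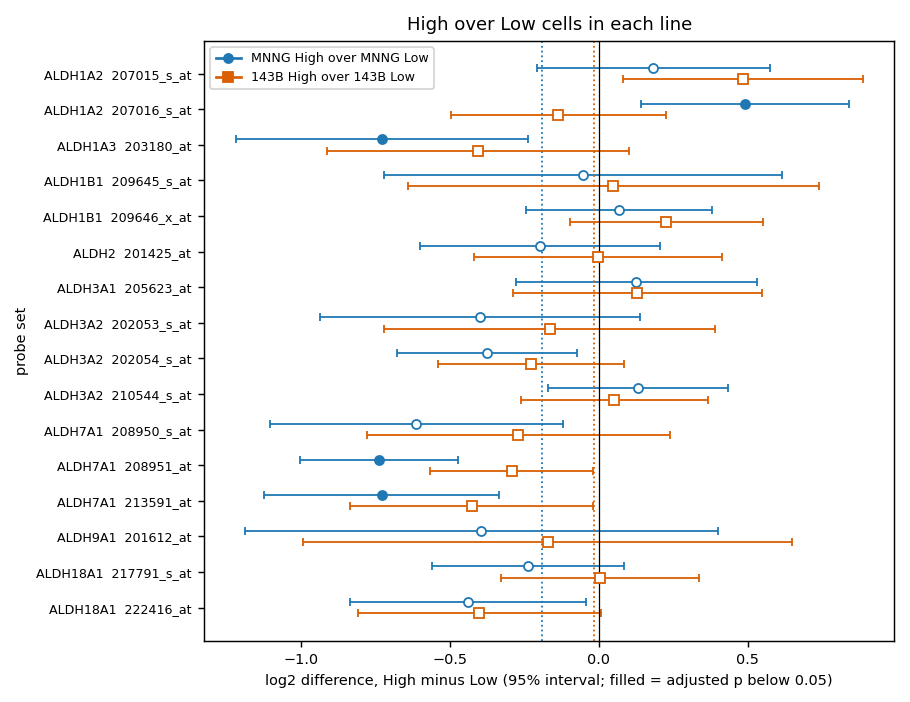
Log2 difference of High minus Low cells for the 16 tested probe sets of the family in MNNG (circles) and in 143B (squares), with 95% intervals; filled symbols have an adjusted p under 0.05 and dotted lines are the medians of all probe sets. The 3 ALDH7A1 probe sets and ALDH1A3 lie farthest to the left in MNNG, and the 143B intervals overlap those of MNNG for every probe set.

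In 143B 0 of the 9 members were called between High and Low cells. Over all genes 0.00694% were called, a single gene. By limma 1 member had an unadjusted p under 0.05, ALDH1A2, and 745 of the 14418 genes did. ALDH1A2 read 6.03, 5.92 and 5.81 in High of 143B-1253, 51&52 and 54&55, against 5.68, 5.203, 5.42, 5.38 and 5.50 in Low of tumors 143B-1251 to 143B-1255. High lay above Low without overlap (0.48 ± 0.19, adjusted p = 0.879), but its other probe set lay at -0.14 ± 0.17. ALDH9A1 and ALDH18A1 lay lower without overlap. ALDH18A1 read 8.93, 9.24 and 9.004 in High and 9.58, 9.35, 9.35, 9.50 and 9.52 in Low (-0.40 ± 0.19, adjusted p = 0.961). ALDH9A1 read 10.42, 10.42 and 10.39 in High, against 10.60, 10.54, 10.55, 10.50 and 10.72 in Low (-0.17 ± 0.39). Over all genes 11.9% had groups that did not overlap, 5.34% higher and 6.53% lower. ALDH1A3 lay at -0.41 ± 0.24, with 7.43, 7.05 and 7.20 in High and 7.36, 7.03, 7.89, 7.95 and 7.93 in Low. The Low values of tumors 143B-1251 and 143B-1252 were within the High range or just below it, and the other 3 were above it.

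Averaged over the lines, ALDH1A3 fell by 0.57 with a standard error of 0.17 (adjusted p = 0.0303), ALDH18A1 by 0.42 with 0.13 (0.0408) and ALDH3A2 by 0.30 with 0.10 (0.0482). The other probe set of ALDH18A1, 217791_s_at, lay at -0.12 ± 0.11 (adjusted p = 0.434). Of ALDH3A2, 202053_s_at lay at -0.28 ± 0.18 and 210544_s_at at 0.09 ± 0.10, and 202054_s_at itself had an adjusted p of 0.0507 among probe sets. By gene, 3 of 9 members were called, with 17.4% of all genes called, 9.85% lower and 7.53% higher, and 0 members were called higher. ALDH7A1 was not called by 208950_s_at (-0.44 ± 0.17, adjusted p = 0.0721) but fell by 0.52 on 208951_at (adjusted p = 0.00321) and by 0.58 on 213591_at (adjusted p = 0.0121), where 17.7% of probe sets were called, 10.8% lower and 6.92% higher. The calls of ALDH3A2 and ALDH18A1 depended on nearly every array, as they were lost in 14 and 12 of the 16 fits that each left out 1 bone array, and that of ALDH1A3 in 7. In the fit with the tumor block and no lung arrays 5 members were lower and 1 higher, ALDH1A2 (0.33 ± 0.12, adjusted p = 0.0340), with 43.6% of all genes called. Whether MNNG and 143B differed in the size of the effect was tested directly. The difference between the lines was called for 0 of 9 members and for 0.00694% of all genes, with 0 members and 1449 genes at an unadjusted p under 0.05. For ALDH1A3 it was -0.33, with a 95% interval of -1.03 to 0.38, and for ALDH7A1 -0.34, with an interval of -1.05 to 0.37.

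The plot of differences within each tumor shows the same values by pair. ALDH1A3 on 203180_at, ALDH3A2 on 202053_s_at and 202054_s_at, all 3 probe sets of ALDH7A1, ALDH9A1 and ALDH18A1 on 222416_at were lower in High in 4 of 4 MNNG tumors and in 3 of 3 pairs of 143B, where a pool was set against the mean of its 2 Low tumors. The remaining probe sets of ALDH3A2 (210544_s_at) and ALDH18A1 (217791_s_at) were lower in 2 and 3 of 4 MNNG tumors and each in 1 of 3 pairs of 143B. The share of all probe sets that were lower in every pair was not computed, so these counts have no background beside them. By group mean, 9139 of the 14418 genes tested lay below 0 in MNNG and 7735 in 143B. The 143B values were the smaller ones for ALDH9A1, at -0.22 to -0.12 against -0.69 to -0.20 in MNNG. ALDH2 was lower in 4 of 4 MNNG tumors by at most 0.40, and in 2 of 3 pairs of 143B. For ALDH1A2, 207016_s_at was higher in 4 of 4 MNNG tumors and lower in 3 of 3 pairs of 143B, and the difference between the lines (0.63 ± 0.24) had an adjusted p of 0.487 by limma.

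**Figure D3:**
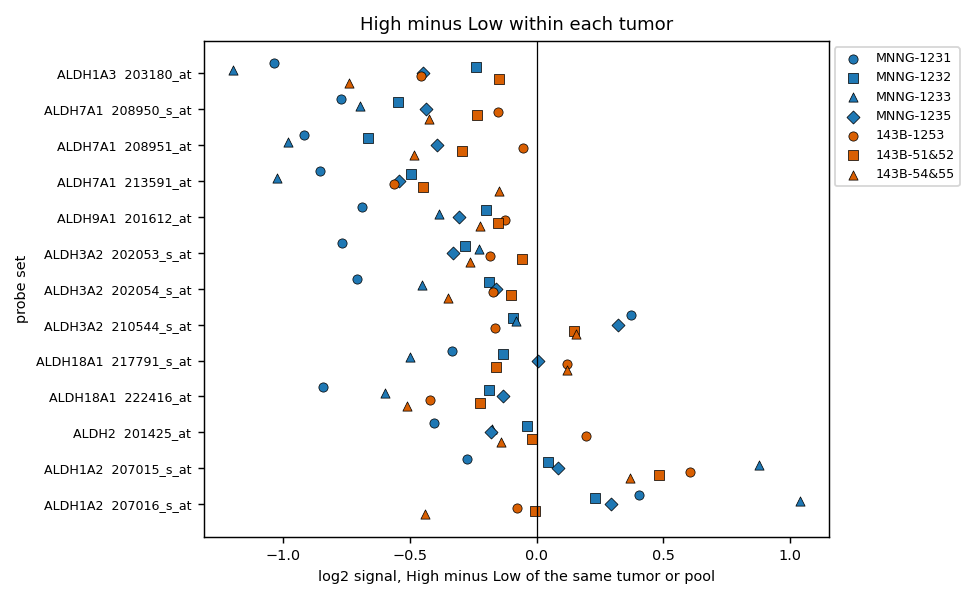
Log2 signal of High minus Low within each tumor for the tested probe sets of 7 member genes; blue symbols are the 4 MNNG tumors and orange ones the 3 pairs of 143B, each pool being set against the mean of its 2 Low tumors. ALDH1A3, ALDH7A1, ALDH9A1, ALDH3A2 on 202053_s_at and 202054_s_at and ALDH18A1 on 222416_at have all 7 symbols left of 0, and tumors MNNG-1231 and MNNG-1233 give the largest falls of ALDH1A3.

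The second comparison set the lines against each other. 143B cells had more ALDH1A3 than MNNG cells in both fractions. ALDH7A1 lay lower in 143B, but whether it was called depended on the probe set and the fraction. A single probe set of ALDH1A2 showed the widest gap of the family. All 143B arrays share a date tag that no MNNG array has, so line and tag cannot be told apart. In Low cells 2 of 9 members were called, 1 higher and 1 lower, with 28.8% of all genes called, 14.4% higher and 14.5% lower. In High cells 2 were called, both higher, with 36.1% of all genes called, 21.4% higher and 14.7% lower. In Low cells 2 members higher and 1 lower in 143B showed no overlap between lines, beside 38.3% of all genes, 18.1% higher and 20.2% lower. In High cells this held for 2 members higher and 2 lower, with 42% of all genes, 24.9% higher and 17.1% lower.

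ALDH1A3 was 2.14-fold higher in 143B_Low than in MNNG_Low (1.10 ± 0.22, n = 5 and 4, adjusted p = 0.000859) and 2.69-fold higher in 143B_High than in MNNG_High (1.43 ± 0.25, n = 3 and 4, adjusted p = 0.000306). The array values are those given above, and every 143B array, at 7.03 or more, lay above every MNNG array of bone tumors, at 6.82 or less. By group mean the order was 143B_Low (7.63), 143B_High (7.23), MNNG_Low (6.53), MNNG_High (5.80) and MNNG_Lung (5.15), and neighbours overlapped except 143B_High and MNNG_Low, and MNNG_High and MNNG_Lung. The difference was called in both fractions under all alternatives run for it, at 0.56 to 1.25 in Low and 0.78 to 1.58 in High. Over the 16 bone arrays the genes whose signal followed ALDH1A3 most closely were PSPH, a serine synthesis phosphatase (Pearson r = 0.978), NPEPL1 (0.9746) and HDGFL3 (0.971). These correlations are a description, as the arrays share lines and tumors.

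The probe sets of ALDH1A2 differed. Probe set 207016_s_at read 7.63, 7.39 and 7.04 in 143B_High and 7.41, 7.38, 7.71, 7.33 and 7.62 in 143B_Low. In MNNG it read 4.69, 4.27, 4.99 and 4.70 in High and 4.28, 4.04, 3.95 and 4.40 in Low, all under the testing level of 5.36. The 8 arrays of 143B therefore stood apart from the 8 of MNNG with no array between 4.99 and 7.04. The difference was 3.32 ± 0.16 in Low (adjusted p = 1.81e-11) and 2.69 ± 0.18 in High (adjusted p = 3.95e-09), with 27.1% of probe sets called in Low, 13.6% in each direction, and 32.7% in High, 20.4% higher and 12.3% lower. The direction shows in the array values, and the size is uncertain because the MNNG signals were under the testing level. This probe set passed the filter only through the 143B arrays, where it was high. Its p-values between the lines are therefore given as a description only. On 207015_s_at, which represents the gene because the lung arrays raise its mean, the lines differed by -0.20 ± 0.18 in Low and 0.10 ± 0.20 in High, and neither was called. Its group levels were 5.92 in 143B_High, 5.44 in 143B_Low, 5.82 in MNNG_High and 5.64 in MNNG_Low. Probe set 207016_s_at was also higher in MNNG_High than in MNNG_Low (0.49 ± 0.17, adjusted p = 0.0398), with overlapping groups and both under the testing level. That call was lost in 5 of the 8 fits that left out an array, without High MNNG-1231, Low MNNG-1231, Low MNNG-1232, High MNNG-1233 or Low MNNG-1233 (adjusted p = 0.0908, 0.0576, 0.0900, 0.130 and 0.112).

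**Figure D4:**
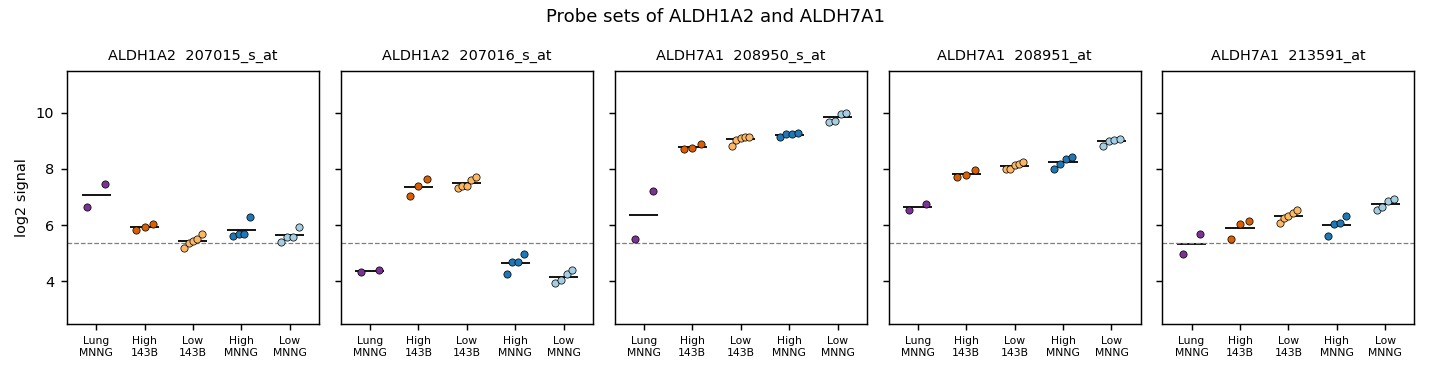
Log2 signal of the 2 probe sets of ALDH1A2 and the 3 of ALDH7A1 on all arrays, by group; each point is an array, black bars are means and the dashed line is 5.36. Probe set 207016_s_at stands at 7.04 or more on all 143B arrays and at 4.99 or less on all MNNG arrays, while 207015_s_at is highest on the lung arrays, and the 3 ALDH7A1 probe sets are each highest in MNNG_Low.

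ALDH7A1 ran the other way. In Low cells 208950_s_at read 9.11, 8.82, 9.04, 9.13 and 9.15 in 143B and 10.005, 9.67, 9.96 and 9.71 in MNNG, without overlap, and was 1.72-fold lower in 143B (-0.79 ± 0.22, adjusted p = 0.0119). After a second quantile normalization it was not called (-0.73, adjusted p = 0.159). Probe set 208951_at was lower by 0.87 in Low (standard error 0.12, adjusted p = 2.14e-05) and by 0.42 in High (standard error 0.14, adjusted p = 0.0254). Of these, the difference in High was not called without High 143B-51&52, High 143B-54&55 or High MNNG-1232 (adjusted p = 0.0880, 0.0938 and 0.0596). Probe set 213591_at lay at -0.42 ± 0.18 in Low and -0.12 ± 0.20 in High and was not called. On 208950_s_at the difference in High was -0.44 ± 0.25 and was not called, and without the lung arrays it was (adjusted p = 0.00514). The genes closest to ALDH7A1 over the 16 bone arrays were MRPL58 (Pearson r = 0.969), MCCC2, a subunit of a leucine breakdown enzyme (0.966), and EFTUD2, a splicing factor (0.965).

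ALDH3A2 was higher in 143B_High than in MNNG_High. The levels of 202054_s_at were 9.57, 9.79 and 9.56 in 143B_High, against 9.06, 9.37, 8.96 and 9.45 in MNNG_High. The groups did not overlap, and the difference was 0.43 ± 0.15 (adjusted p = 0.0371). It was not called without any 1 of the 3 143B_High arrays or without High MNNG-1231 or High MNNG-1233 (adjusted p = 0.0610 to 0.153). In Low it was 0.28 ± 0.13 and not called. Its other probe sets lay on the same side, with 202053_s_at at 0.77 ± 0.28 in High (adjusted p = 0.0403) and 0.54 ± 0.24 in Low, and 210544_s_at at 0.32 ± 0.16 in High and 0.40 ± 0.14 in Low (adjusted p = 0.0390). These calls were lost in 7 of 7 fits without an array for 202053_s_at in High and in 7 of 9 for 210544_s_at in Low. ALDH18A1 was at 0.45 ± 0.20 in High and 0.41 ± 0.18 in Low, neither called. ALDH3A1 lay at -0.37 ± 0.21 in High and -0.37 ± 0.18 in Low and was not called. For ALDH2, ALDH1B1 and ALDH9A1 the lines differed by -0.14 to 0.20 and were not called, with 95% intervals that reached 0.94 for ALDH9A1 and 0.64 for ALDH2 in High cells.

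**Figure D5:**
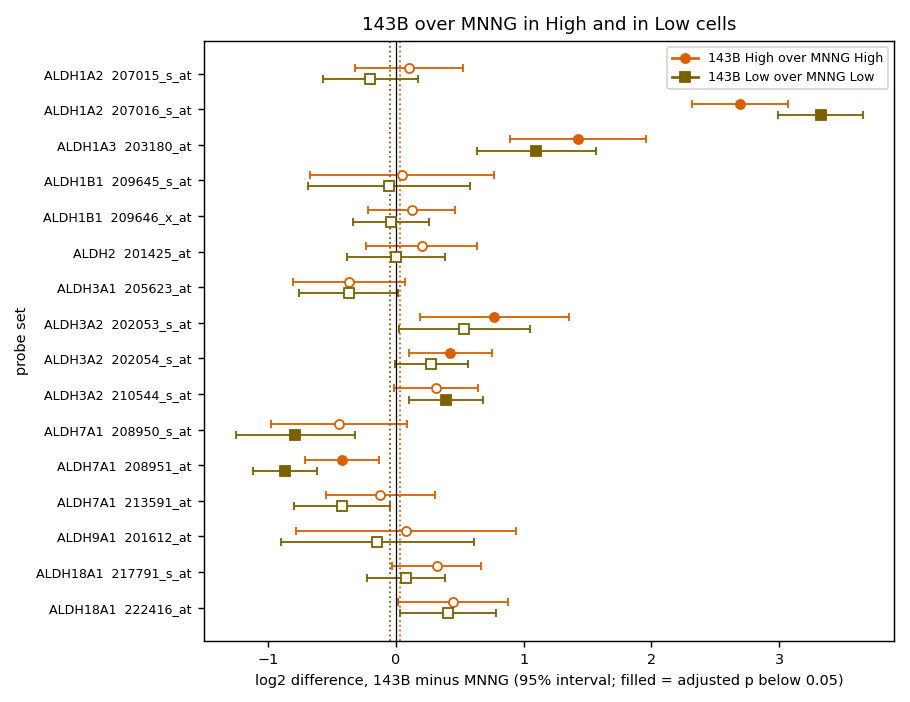
Log2 difference of 143B minus MNNG for the 16 tested probe sets in High (circles) and Low cells (squares), with 95% intervals; filled symbols have an adjusted p under 0.05 and dotted lines are the medians of all probe sets. ALDH1A2 on 207016_s_at and ALDH1A3 lie to the right in both fractions and ALDH7A1 on 208951_at to the left.

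The third comparison took MNNG cells from lung metastases against MNNG cells from bone tumors. Between the lung arrays r was 0.865, where arrays within the bone groups correlated at 0.956 to 0.995, and a large share of all genes was called, 87% against MNNG_Low (35.1% higher, 51.9% lower) and 82.4% against MNNG_High (34.8% higher, 47.6% lower). Among the members 8 of 9 were called in each, 2 higher and 6 lower, a share close to that background. Of the 2 higher ones, ALDH1A2 is read on a probe set that stands for it because the lung arrays raise its mean. Lung lay outside the range of MNNG_Low for 1 member above and 6 below, beside 85.7% of all genes, 34.7% above and 51% below, and outside that of MNNG_High for 2 above and 6 below, beside 77.6%, 32.4% and 45.2%. By probe set 13 of 16 were called in each, 3 higher and 10 lower, where 84.4% of all probe sets were called against MNNG_Low (35.1% higher, 49.3% lower) and 78.5% against MNNG_High (34.9% higher, 43.6% lower). All 10 macrophage markers measured had a lung group mean at or above the testing level, against 8 in MNNG_High and 6 in MNNG_Low. Of 10 lung epithelium markers measured 8 did so, against 6 in MNNG_High and 5 in MNNG_Low, and of 7 tested 5 were higher and 1 lower than in MNNG_Low. SFTPC, a surfactant protein, averaged 8.46 in lung, against 7.05 in MNNG_High and 6.66 in MNNG_Low, and EPCAM, an epithelial adhesion protein, 4.94, against 7.96 and 8.67. Other lists moved as well. Against MNNG_Low, 7 of 8 macrophage markers tested were higher and 1 lower, 4 of 5 of skeletal muscle and 3 of 3 of endothelium were higher, and 3 of 6 of osteoblasts and osteosarcoma were lower with 0 higher. A gene high on the 2 lung arrays alone could not pass the filter of 3 arrays, so the counts of higher genes leave such genes out. Among the osteoblast markers left out, SP7, ALPL and IBSP averaged 6.38, 6.04 and 6.58 in lung, against 4.36, 4.06 and 4.50 in MNNG_Low. The part of these markers' cells in the differences was not tested.

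ALDH3A2 on 202054_s_at was 5.01 on the array of tumor MNNG-1233 and 5.52 on the mixture, which gave -4.32 ± 0.17 against MNNG_Low and -3.94 ± 0.17 against MNNG_High. On 222416_at ALDH18A1 stood at 4.54 and 5.37 (-4.10 ± 0.23 against MNNG_Low) and ALDH9A1 at 8.16 and 5.06 (-4.11 ± 0.47). The lung arrays were far apart from each other in ALDH9A1 and lay below all bone arrays in each of these 3 genes. The sizes are uncertain where lung signals were near or under the testing level, and they differed by probe set. ALDH18A1 on 217791_s_at was at -1.18 ± 0.19. ALDH7A1 was at -3.48 ± 0.29 on 208950_s_at, -2.35 ± 0.16 on 208951_at and -1.43 ± 0.23 on 213591_at, ALDH2 at -2.86 ± 0.23 and ALDH1A3 at -1.38 ± 0.29 against MNNG_Low. The increases were ALDH1A2 on 207015_s_at, with 6.65 and 7.47 (1.42 ± 0.23), and ALDH3A1, with 6.73 and 5.84 (0.90 ± 0.24), where the lower lung value lay within the MNNG_Low range. Because the lung arrays put 207015_s_at ahead as the probe set of ALDH1A2, its lung difference is a description only. With the probe set brightest on bone arrays ALDH1A2 was at -0.29 against MNNG_High and not called (limma, adjusted p = 0.186). Without the lung array of tumor MNNG-1233 ALDH3A1 was not called (0.45, adjusted p = 0.101). ALDH1B1 was at -0.24 ± 0.18 and not called, and on its other probe set the lung arrays lay on either side of the bone groups, at 6.86 and 4.38. Against MNNG_High the call of ALDH1A3 (-0.65 ± 0.29, adjusted p = 0.0432) was lost without either lung array or without High MNNG-1232 or High MNNG-1235 (adjusted p = 0.0934 to 0.142). Probe sets of a gene did not always share a direction against MNNG_Low. ALDH3A2 was higher on 210544_s_at (0.62 ± 0.18, adjusted p = 0.00333) while 202054_s_at and 202053_s_at were lower, and 207016_s_at of ALDH1A2 was not called (0.20 ± 0.20). For ALDH1A3, 203180_at was lower, whereas 1558649_at, which did not pass the filter, read 5.06 and 5.93 on the lung arrays and 3.80 to 4.38 on the bone arrays.

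Genes that work beside the members were read from lists. Of 7 other aldehyde dehydrogenases tested (9 listed), 3 were lower and 1 higher in MNNG_High than in MNNG_Low. Of all genes 15.5% were lower and 10.6% higher. ALDH1L2, the mitochondrial folate enzyme, fell by 1.15 (standard error 0.26, adjusted p = 0.00778), ALDH5A1, which oxidises succinic semialdehyde, by 0.79 (0.22, adjusted p = 0.0187) and ALDH6A1, of valine breakdown, by 0.61 (0.21, adjusted p = 0.0440). ALDH3B1 rose by 0.73 ± 0.16 (adjusted p = 0.00774). Their median was -0.20, beside -0.19 for all genes.

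Of 22 tested genes of retinoid supply, breakdown and response (26 listed), 3 were higher and 0 lower in MNNG_High, where 10.6% and 15.5% of all genes were. The median of the list was -0.04, beside -0.19 for all genes. The 3 were CYP26A1, which breaks down retinoic acid (0.71 ± 0.16, adjusted p = 0.00829), and the receptors RARG (0.56 ± 0.13, adjusted p = 0.00970) and RARB (0.61 ± 0.19, adjusted p = 0.0297). The Low group of CYP26A1 and both groups of RARB were under 5.36. Between the lines 2 retinoid genes were higher and 7 lower in 143B_Low than in MNNG_Low, where 14.4% and 14.5% of all genes were, and 4 higher and 7 lower in 143B_High than in MNNG_High, where 21.4% and 14.7% were. Their median differences were -0.18 in Low, beside -0.04 for all genes, and -0.25 in High, beside 0.01. The receptor RXRA was at -1.97 ± 0.14 in Low and -1.97 ± 0.16 in High, and the carrier CRABP2 at -1.39 ± 0.16 and -1.09 ± 0.18. DHRS3, which reduces retinaldehyde to retinol, was higher in 143B_High (1.11 ± 0.23, adjusted p = 0.00122).

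Partners in carnitine, lysine, choline and fatty aldehyde metabolism had 6 of 10 tested members lower in MNNG_High and 0 higher (12 listed), with a median of -0.49, where 15.5% of all genes were lower and 10.6% higher with a median of -0.19. FAR1, a reductase that makes fatty alcohols, fell by 0.998 (standard error 0.25), SGPL1, which releases a fatty aldehyde from sphingosine phosphate, by 0.57 (0.16), HACL1 by 0.51 (0.13) and the carnitine transporter SLC22A5 by 0.47 (0.13), with adjusted p from 0.0126 to 0.0189. Between the lines 2 of the 10 were higher and 2 lower in 143B_Low than in MNNG_Low, where 14.4% and 14.5% of all genes were. Among them PHYH, of phytanic acid breakdown, was lower (-1.41 ± 0.18) and FAR2 higher (1.42 ± 0.22). Of 18 tested genes for other aldehydes and oxidants (25 listed), 1 was lower in MNNG_High and 0 higher, the 1 being the aldehyde reductase AKR7A2 (-0.45 ± 0.14, adjusted p = 0.0288). In 143B_Low against MNNG_Low 4 of the 18 were higher and 4 lower, among the lower ones the quinone reductase NQO1 (-1.42 ± 0.26). Of 7 tested proline and glutamate enzymes (9 listed), which neighbour ALDH18A1, 0 were called between MNNG_High and MNNG_Low (1 with an unadjusted p under 0.05 by limma). In 143B_Low against MNNG_Low 1 of the 7 was higher and 0 lower, the 1 being ARG2, the mitochondrial arginase (1.61 ± 0.18). In 143B_High against 143B_Low 0 genes of these 5 lists were called, with 6 of 64 at an unadjusted p under 0.05.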

How the data were processed

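Total RNA was hybridised to 18 1-colour expression arrays. The deposited values are log2 signals per probe set, made by the authors with RMA, per the submitters' processing notes. The sources used here do not give the RMA version, the set of arrays it was run on or a genome build. Of 54675 probe sets 41097 had 1 gene in the platform annotation, 1801 several and 11777 none. Of 19775 genes 19735 were found in RefSeq by Entrez identifier, and 0 symbols differed. Where a gene had several probe sets, the one with the highest mean over the 18 arrays stood for it. Genes with a signal of 5.36, the table median, on at least 3 arrays were tested with limma 3.58.1 in R 4.3.3 on the 5 groups, giving 8 comparisons, and probe sets likewise. P-values were adjusted by Benjamini-Hochberg over all genes or probe sets tested, with a threshold of 0.05. In the main fit they rest on the spread of arrays within groups, pooled over the 5 groups with the lung arrays included. That fit had no term for tumor and took every array as independent. Its p-values for High against Low therefore do not measure how that difference varied from tumor to tumor. The number of arrays limits the precision, with 2 to 5 arrays in a group. The code was tested on simulated data.

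High and Low samples with the same tumor number come from the same tumor, per the labels. Deviations of such pairs from their group means correlated at 0.299 to 0.579 in MNNG and at 0.542 for tumor 143B-1253, and those of the pools with their 2 Low tumors at -0.192 and 0.529, and at 0.0626 and 0.243. The tumor was a block in an alternative fit. The members and gene lists were chosen with earlier results of these data known. All 10 members are described. Of each other list at most the 4 genes with the smallest p in a comparison were eligible to be named, and for the 2 members with the widest range of bone group means the 3 genes with the highest Pearson r.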

Additional observations from a re-analysis of the deposited data

Results flagged for a closer look

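Among 54 tests of a group of 4 or 5 arrays for a far value, 5 values stood apart by Dixon's criterion, where chance gives about 1 in 20. ALDH1A2 on 207015_s_at read 6.29 in High MNNG-1233, against 5.63 to 5.67 in the other MNNG_High arrays. ALDH1A3 on 1558649_at, a probe set under the testing level, read 3.92 in Low 143B-1251, against 4.11 to 4.18 in the other 143B_Low arrays. ALDH3A2 on 210544_s_at read 6.80 in Low 143B-1255, against 7.24 to 7.38 in the others of that group. Low MNNG-1231 held 2 of the 5 values. Its ALDH3A1 signal was 5.86, against 5.19 to 5.30 in the other MNNG_Low arrays, and its ALDH3A2 signal on 202053_s_at was 9.07, against 8.60 to 8.64. Low MNNG-1231 is the MNNG_Low array that shares its date tag with the MNNG_High arrays, and the part of the tag in these values was not tested.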

How the results depend on the processing

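Of 1407 member gene differences under alternatives, 1265 kept their side of the threshold (59 of them changed sign without being called), 80 lost and 57 gained a call, and 5 reversed. Of 2216 probe set differences 2030 kept their side (92 with a changed sign), 114 lost and 69 gained a call, and 3 reversed. The bone-array probe set, the fit without narrow-spread arrays and the probe set fits were chosen after seeing the data, and the causes of the changes below were not tested. With the mean over all probe sets ALDH1A2 in 143B_Low against MNNG_Low was at 1.56 and ALDH1A3 in lung at 0.012 against MNNG_Low and 0.39 against MNNG_High. With the probe set brightest on bone arrays ALDH1A2 was at 3.32 in 143B_Low against MNNG_Low and at -0.29 in lung against MNNG_High. 207016_s_at in lung against MNNG_Low was at -0.53 after a second quantile normalization. Leaving out either lung array, 209645_s_at of ALDH1B1 ranged from -1.47 to 1.01 against MNNG_Low and from -1.42 to 1.06 against MNNG_High, the positive values being those without the mixture.

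The share of all genes called also moved between alternatives, so a changed count is not by itself a change in the members. For MNNG_High against MNNG_Low 26.1% of all genes were called. That share was 7.13% after quantile normalization, 44.4% without lung arrays, 39.3% with array weights and 55.8% with the replicate block. Of the members 1 was called. The count was 2 without _x_at and _s_at probe sets, 2 with the bone-array probe set, 0 after quantile normalization, 4 with median centring, 5 without lung arrays, 2 with array weights, 5 with the tumor as a replicate block, 0 with the date tag, 0 without the narrow-spread arrays, and 0 to 3 leaving out single arrays. For the mean of both lines 17.4% of all genes were called. That share was 4.28% after quantile normalization, 34.2% without lung arrays, 39.9% with array weights and 43.6% with the replicate block. Of the members 3 were called. The count was 1 with the mean over probe sets, 0 after quantile normalization, 6 without lung arrays, 5 with array weights, 6 with the replicate block, 0 with the date tag, 0 without the narrow-spread arrays, and 0 to 3 leaving out single arrays. For 143B_Low against MNNG_Low 28.8% of all genes were called, beside 22.2% after quantile normalization and 48.7% with array weights. Of the members 2 were called. The count was 4 with the mean over probe sets, 1 after quantile normalization, 4 with only the groups compared, 5 with array weights, and 2 leaving out any array. For 143B_High against MNNG_High 36.1% of all genes were called. That share was 26.9% after quantile normalization, 47.2% without lung arrays, 53.3% with array weights and 46.3% with the random replicate block. Of the members 2 were called. The count was 1 after quantile normalization, 4 without lung arrays, 4 with array weights, 4 with the tumor as a random replicate block, 1 without the narrow-spread arrays, and 1 to 3 leaving out single arrays. Lung against MNNG_Low gave 7 to 9 and lung against MNNG_High 6 to 8 leaving out single arrays, against 8 in each. The replicate block changed no call in 143B_High against 143B_Low, which had 0 called under every alternative run, as had the difference between the lines.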
